A study of Mus musculus with 51 samples.

Results

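The oesophageal epithelium of E13.5 mouse embryos was compared with wild-type oesophageal epithelium across all genes. The members are every gene of the deposited count table, measured in 2 embryonic and 6 wild-type (WT) libraries out of 51 libraries of the series. Of 52636 genes in the table, 22370 passed the filter on low counts and were tested. The embryo libraries came from the oesophagus of E13.5 embryos of mice with a mixed genetic background and the Krt8YFP genotype, in which a yellow fluorescent protein reports Krt8, and their cells were sorted on EpCAM and YFP. The WT libraries came from oesophagus of wild-type CD1 mice, sorted on low EpCAM, and the labels give no age for them. Age, strain, genotype and sorting gate differ together between these groups, so their parts in any difference cannot be told apart, and Krt8 and Epcam are close to what the gates selected. The labels do not say how many animals a library holds or whether libraries came from separate animals. The p-values measure only spread between libraries, estimated over all 51 libraries of the series and not from these 2 groups alone. Values of 2 other groups are set beside the results where named: Junction squamous (n = 3, Krt8YFP, EpCAM-high and YFP-negative cells of the squamous side of the squamocolumnar junction) and Junction columnar (n = 4, Krt8YFP, mixed background, EpCAM-high cells of the columnar side with YFP). The comparisons with them use the same embryo libraries.

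At this stage the oesophagus is a tube of immature foregut endoderm, newly separated from the trachea, whose cells carry simple epithelial keratins. Later it becomes a stratified squamous epithelium in which p63-positive basal cells divide and suprabasal cells build desmosomes, Krt4 and Krt13 filaments and a cornified envelope. Hedgehog ligand from the endoderm instructs the surrounding mesenchyme, and Wnt, BMP, Notch and FGF signals pattern the tube.

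The embryo libraries held 10.83 and 10.91 M counts, the WT libraries 8.04 to 9.88 M, the Junction squamous libraries 6.38 to 7.02 M and the Junction columnar libraries 4.29 to 6.5 M. Levels are given as CPM, a library's counts scaled to a total of 1e6. Fold changes are log2 folds of embryo against WT ± SE from edgeR's quasi-likelihood test with TMM scaling, and a gene was called at a Benjamini-Hochberg adjusted p under 0.05. TMM factors were 1.332 and 1.361 in the embryo and 0.912 to 0.972 in WT, so ratios of CPM lie above TMM folds, and the median log2 fold of all genes moved from 0.16 with TMM to 0.685 with plain library totals. Embryo 1 stood apart from embryo 2 by transcripts of intestine, liver and pancreas, described at the end, and list counts are therefore given with both embryos and without embryo 1. WT replicates 3 and 5, and 4 and 6, differed less than other WT pairs (chi-square per degree of freedom 1.83 and 2.31, against 9.94 to 31.5), more than sampling noise alone but close enough that each pair may be 1 sample sequenced again. In bulk libraries, fewer cells of a type and less RNA per cell cannot be told apart. Both embryo libraries held Xist together with Y-linked transcripts, whereas in WT replicate 1 held Xist and replicates 2 to 6 held Y-linked transcripts.

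The expression of a majority of genes differed. In all, 14311 of 22370 genes were called (64%), 8082 higher in the embryo (36.1%) and 6229 lower (27.8%). Of these calls 56.5% were higher with TMM and 76.1% with library totals, where 68.1% of genes were called, 51.8% higher and 16.2% lower. Without embryo 1, 12978 of 23837 genes were called (54.4%), 30% higher and 24.5% lower, and 11836 genes were called in the same direction both ways. Without embryo 2, 50.4% were called, 27.3% higher and 23.1% lower. With the further demand of a log2 fold beyond 1 in size, the calls covered 44.7% of genes, 27.4% higher and 17.3% lower. A log2 fold of at least 5 was found for 1121 genes called higher and 338 called lower. No count was found in any WT library for 605 genes called higher, and none in either embryo library for 116 called lower. The counts of list members below are read against these shares of all genes.

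Most keratins of simple epithelia were higher in the embryo than in WT, and most keratins of squamous epithelia were lower. Krt8, the type II keratin of simple epithelia and the gene behind the reporter, stood at 379.5 CPM in embryo 1 and 173 CPM in embryo 2 and 0.214 to 1.12 CPM in WT (median 0.416); as the gates chose cells by its reporter, no test is given. Its partner Krt18 stood at 378 CPM in embryo 1 and 199.7 CPM in embryo 2 and 0.365 to 1.37 CPM in WT (median 0.779). The Krt18 log2 fold was 7.88 ± 0.50 (adjusted p = 1.41e-17). Both were present in each embryo library and close to absent in every WT library. Cells chosen by the Krt8 reporter may also differ in keratins that go with Krt8. The tests of Krt18, Krt19, Krt7 and Krt20 can therefore not be separated from the gates. Krt19, the smallest simple keratin, stood at 307 CPM in embryo 1 and 314 CPM in embryo 2 and 2.49 to 5.72 CPM in WT (median 4.25). For Krt19 the log2 fold was 5.70 ± 0.35 (adjusted p = 5.53e-18). Krt7, a keratin of ducts and transitional epithelia, stood at 77.5 CPM in embryo 1 and 89.4 CPM in embryo 2 and 0.122 to 0.871 CPM in WT (median 0.708). The Krt7 log2 fold was 6.48 ± 0.61 (adjusted p = 1.95e-12). Krt20, found in gastrointestinal and urothelial cells, stood at 112 CPM in embryo 1 and 206 CPM in embryo 2 and 0.321 to 1.72 CPM in WT (median 0.986). For Krt20 the log2 fold was 6.77 ± 0.54 (adjusted p = 1.29e-14). The libraries of the groups did not overlap for Krt18, Krt19, Krt7 or Krt20, as for 64.9% of all genes tested, and all 4 were also called higher without embryo 1. The listed Krt23 (log2 fold -4.31 ± 0.61) and Krt80 (log2 fold -2.17 ± 0.45) were lower. Against Junction squamous, 4 of the 7 listed keratins were higher in the embryo and 3 lower. Krt7 was lower in the embryo than there (log2 fold -1.70 ± 0.59, adjusted p = 0.0123). Its mean in Junction squamous cells was 187 ± 10.5 CPM (SD, n = 3). Krt20 was higher in the embryo than there (log2 fold 1.45 ± 0.52), where its mean was 40 ± 8.07 CPM.

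The basal keratins were all lower in the embryo, but to very different degrees. Krt14, the type I keratin of basal cells, stood at 32.6 CPM in embryo 1 and 38.4 CPM in embryo 2 and 1667 to 2777 CPM in WT (median 2234). For Krt14 the log2 fold was -6.53 ± 0.51 (adjusted p = 7.19e-15). Its type II partner Krt5 stood at 202 CPM in embryo 1 and 316 CPM in embryo 2 and 2357 to 4384 CPM in WT (median 3591). The Krt5 log2 fold was -4.26 ± 0.42 (adjusted p = 5.88e-12). Krt15, a basal keratin of oesophageal progenitors, stood at 529.6 CPM in embryo 1 and 817 CPM in embryo 2 and 948 to 1212 CPM in WT (median 1085). For Krt15 the log2 fold was -1.20 ± 0.36 (adjusted p = 0.00326). Krt15 was not called without embryo 1 (log2 fold -1.02 ± 0.47, adjusted p = 0.0632) or with library totals (log2 fold -0.68 ± 0.34, adjusted p = 0.0771). Scaled per kilobase of exon, the embryo mean was 381 CPM per kilobase for Krt15, 118 for Krt5 and 20.2 for Krt14, against 610.3, 1572 and 1303 in WT. Per length, Krt15 thus had the highest level of the 3 in the embryo and the lowest in WT.

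Of 13 suprabasal and stress keratins tested, 8 were lower and 0 higher (7 of 14 and 0 without embryo 1). Krt13, the suprabasal type I keratin of the oesophagus, stood at 24.1 CPM in embryo 1 and 45.9 CPM in embryo 2 and 5767 to 10778 CPM in WT (median 7489). The Krt13 log2 fold was -8.32 ± 0.43 (adjusted p = 1.68e-20). Its partner Krt4 stood at 35.1 CPM in embryo 1 and 63 CPM in embryo 2 and 3841 to 9794 CPM in WT (median 5978). For Krt4 the log2 fold was -7.52 ± 0.83 (adjusted p = 1.45e-10). Krt16, a keratin of activated and fast-cycling keratinocytes, stood at 2.68 CPM in embryo 1 and 6.51 CPM in embryo 2 and 462 to 869.5 CPM in WT (median 730.1). The Krt16 log2 fold was -7.78 ± 0.54 (adjusted p = 1.64e-16). Each of these was among the abundant transcripts of WT and far below every WT library in both embryos. Krt17, another stress keratin, was not called, at 277 CPM in embryo 1 and 402 CPM in embryo 2 and 161 to 499 CPM in WT (median 276). For Krt17 the log2 fold was -0.41 ± 0.37 (adjusted p = 0.34). In Junction squamous cells the mean was 5898 ± 389 CPM for Krt5, 1368 ± 171 CPM for Krt13 and 59.7 ± 13.4 CPM for Krt4 (SD, n = 3), and the difference in Krt4 was not called (embryo against Junction squamous log2 fold -0.82 ± 0.62, adjusted p = 0.255). In Junction columnar cells it was 769.8 ± 341 CPM for Krt8 and 22 ± 13.3 CPM for Krt5 (SD, n = 4). The 3 basal keratins were higher in the embryo than in Junction columnar cells (log2 fold 3.31 ± 0.34 for Krt5, log2 fold 1.93 ± 0.40 for Krt14 and log2 fold 4.66 ± 0.37 for Krt15, adjusted p of 2.73e-11, 5.06e-05 and 1.3e-14).

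**Figure D1:**
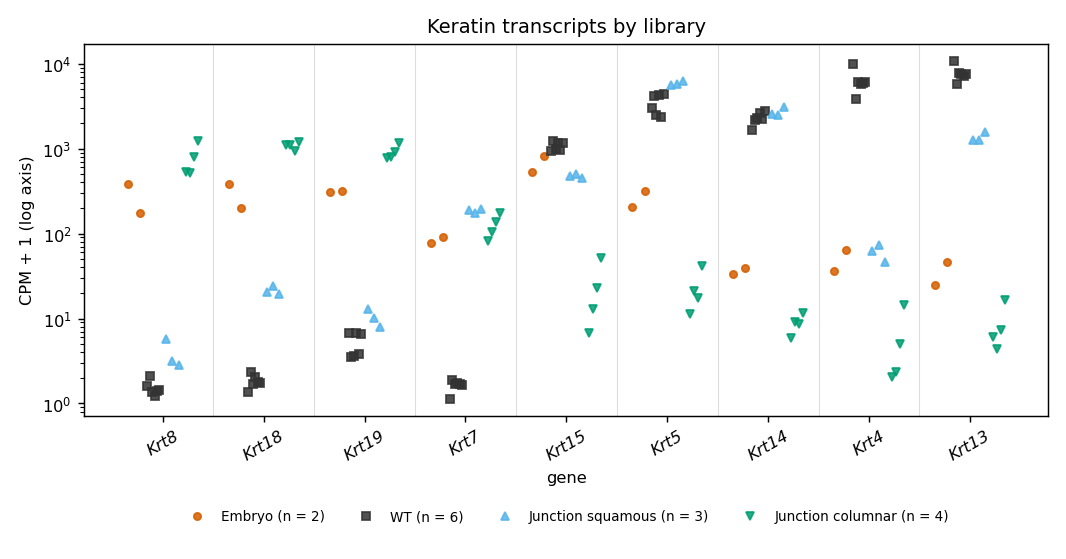
CPM of 9 keratins on a log axis with an offset of 1 CPM, for the 2 embryo libraries, the 6 WT libraries, 3 Junction squamous and 4 Junction columnar libraries; each point is 1 library. The embryo points lie nearer to the columnar than to the WT points for Krt8, Krt18 and Krt19, and far below the WT points for Krt14, Krt4 and Krt13, while for Krt15 they lie just below WT. For Krt7 the Junction squamous points lie above the embryo points.

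Transcripts of the cornified envelope and the barrier were nearly all lower. Of 36 listed genes tested, 33 were called lower and 2 higher, with a median log2 fold of -7.37 (-6.35 with genes that have no embryo count at their bound; 30 lower and 1 higher without embryo 1). Tgm3, a transglutaminase that crosslinks the envelope, stood at 0.554 CPM in embryo 1 and 0.916 CPM in embryo 2 and 1489 to 2953 CPM in WT (median 1861). The Tgm3 log2 fold was -11.87 ± 0.64 (adjusted p = 4.38e-20). Tgm1, its membrane-bound relative, stood at 14.9 CPM in embryo 1 and 18.1 CPM in embryo 2 and 411 to 742 CPM in WT (median 610.1). For Tgm1 the log2 fold was -5.73 ± 0.39 (adjusted p = 7.13e-17). Lypd3, a surface protein of suprabasal cells, stood at 4.34 CPM in embryo 1 and 6.78 CPM in embryo 2 and 454 to 649 CPM in WT (median 612). The Lypd3 log2 fold was -7.24 ± 0.33 (adjusted p = 2.56e-22). All 3 were far below the lowest WT library. Mt4, a metallothionein of stratified squamous epithelia, had no count in either embryo library and stood at 127 to 251 CPM in WT (median 158), at least 1234-fold lower in the embryo against a floor of 3 counts over both embryos. Sprr1b, a small proline-rich envelope protein, had 1 count in the embryo and stood at 107 to 289.7 CPM in WT (median 115), a ratio of WT over embryo CPM of 3096 (95% exact counting interval 556 to 122304). Against Junction squamous, 28 of the listed genes were lower in the embryo and 0 higher (of all genes 57.6% were called, 26% lower), and against Junction columnar 6 and 8 (62.2% of all genes, 29.9% lower).

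The promoters of these genes are shown because activator protein 1 (AP-1), the Fos and Jun family of transcription factors, is a known regulator of keratinocyte differentiation genes. The motif TGANTCA, a palindrome read the same on both strands, lay in the 250 bases before the start of 13 of the 26 cornified genes called lower that have a promoter in RefSeq (GRCm38.p6), and in 1856 of 27025 RefSeq promoters (6.9%). It also lay before Clca3a2 (log2 fold 3.89) and Flg (log2 fold -0.71), listed genes that were not called lower. Near-identical neighbours such as Sprr2d and Sprr2e were counted separately. A match is a description of the letters and not a measured site, and the part of AP-1 in these levels was not tested. Stretches of 29 bases around it, with the motif in capitals, were as follows, 5′ to 3′ on the strand of the gene.
Sprr1b, chr3:92438873-92438901 (-): agcacctaggaTGAATCAtgtctgacagg
Krtdap, chr7:30787813-30787841 (+): tgatccggggaTGAGTCActagggtggga
Dmkn, chr7:30763656-30763684 (+): tggataggcccTGAGTCActggaggaggg
Sprr1a, chr3:92485980-92486008 (-): ggggaggagggTGAGTCAtaggtgactgg
Sprr2d, chr3:92338936-92338964 (+): tgagtgctcacTGAGTCAcaggtctcaac
Lor, chr3:92083173-92083201 (-): tgatcaatagaTGAGTCAgagcaggacaa
Dmkn, a secreted protein of the suprabasal layers, stood at 5.26 CPM in embryo 1 and 8.06 CPM in embryo 2 and 550.4 to 1323 CPM in WT (median 799.5). For Dmkn the log2 fold was -7.50 ± 0.40 (adjusted p = 3.31e-20). Krtdap, a keratinocyte differentiation protein, stood at 3.6 CPM in embryo 1 and 3.94 CPM in embryo 2 and 370.1 to 847 CPM in WT (median 475). The Krtdap log2 fold was -7.63 ± 0.36 (adjusted p = 1.04e-21). Sprr1a stood at 24.7 CPM in embryo 1 and 27.8 CPM in embryo 2 and 384 to 841 CPM in WT (median 542). For Sprr1a the log2 fold was -4.92 ± 0.55 (adjusted p = 1.98e-10). Lor, loricrin of the cornified envelope, varied more among WT, at 5.91 CPM in embryo 1 and 9.07 CPM in embryo 2 and 11.4 to 314 CPM in WT (median 65.8). The Lor log2 fold was -4.24 ± 0.87 (adjusted p = 5.06e-05). The stretches of Sprr2d and its neighbour Sprr2e are identical, and counts of such near-identical copies are uncertain because reads could be split between them.

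Of the AP-1 and immediate early genes, 21 of 26 tested were lower and 1 higher, with a median log2 fold of -1.36 (19 and 0 without embryo 1, and 16 and 2 with library totals). Fosl1, a Fos family member of keratinocytes, stood at 28.7 CPM in embryo 1 and 34 CPM in embryo 2 and 412 to 520.0 CPM in WT (median 450.4). For Fosl1 the log2 fold was -4.39 ± 0.36 (adjusted p = 4.96e-14). Dnajb1, a heat-shock cochaperone, stood at 92.2 CPM in embryo 1 and 115 CPM in embryo 2 and 889 to 1221 CPM in WT (median 925). The Dnajb1 log2 fold was -3.80 ± 0.26 (adjusted p = 2.23e-16). Both embryos lay far below every WT library for both. Ier3, an immediate early survival gene, stood at 10.3 CPM in embryo 1 and 14.8 CPM in embryo 2 and 66.3 to 129 CPM in WT (median 83.5). For Ier3 the log2 fold was -3.34 ± 0.25 (adjusted p = 3.55e-15). Fos itself was not called, at 446 CPM in embryo 1 and 666 CPM in embryo 2 and 329 to 1553 CPM in WT (median 355) (log2 fold -0.71 ± 0.38, adjusted p = 0.0993), with both embryos inside the WT range.

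Desmosomes, the spot contacts that join squamous cells, were represented by 15 tested genes, of which 12 were lower and 2 higher (12 and 2 without embryo 1). Dsc3, the desmocollin of basal cells, stood at 4.71 CPM in embryo 1 and 6.51 CPM in embryo 2 and 1137 to 1387 CPM in WT (median 1282). The Dsc3 log2 fold was -8.34 ± 0.28 (adjusted p = 7.1e-27). Dsg1b, a desmoglein of upper layers, stood at 0.185 CPM in embryo 1 and 0.367 CPM in embryo 2 and 261 to 861 CPM in WT (median 464). For Dsg1b the log2 fold was -11.23 ± 0.60 (adjusted p = 4.1e-20). Dsp, desmoplakin, the linker that every desmosome needs, was lower by much less, at 1682 CPM in embryo 1 and 2442 CPM in embryo 2 and 4775 to 8094 CPM in WT (median 5924). The Dsp log2 fold was -2.10 ± 0.21 (adjusted p = 1.41e-11). An exception was Pkp2, the plakophilin of simple epithelia, at 40.7 CPM in embryo 1 and 18.6 CPM in embryo 2 and 0.353 to 0.974 CPM in WT (median 0.521). The Pkp2 log2 fold was 5.07 ± 0.40 (adjusted p = 8.07e-15). Pkp4, a related plaque protein, was also higher (log2 fold 0.73 ± 0.16, adjusted p = 0.00016) but was not called without embryo 2. Dsg2, the desmoglein of simple epithelia, was not called (log2 fold 0.37 ± 0.24, adjusted p = 0.177; log2 fold 0.89 ± 0.22, adjusted p = 0.000425, with library totals).

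Other junction genes went both ways. Of 31 tight and adherens junction genes, 18 were higher and 7 lower, without embryo 1 12 and 9, and without embryo 2 18 and 4, so each library moves how far the list leans upward. Cldn6, a claudin of embryonic epithelia, stood at 103 CPM in embryo 1 and 42.9 CPM in embryo 2 and 0 to 0.32 CPM in WT (median 0). For Cldn6 the log2 fold was 9.15 ± 0.51 (adjusted p = 3.45e-19). Cldn7 stood at 140.4 CPM in embryo 1 and 43.1 CPM in embryo 2 and 0.373 to 0.942 CPM in WT (median 0.853). For Cldn7 the log2 fold was 6.36 ± 0.38 (adjusted p = 1.39e-18). Cldn1, the barrier claudin of squamous epithelia, stood at 12.7 CPM in embryo 1 and 20.8 CPM in embryo 2 and 104 to 369.6 CPM in WT (median 296). The Cldn1 log2 fold was -4.60 ± 0.41 (adjusted p = 4.84e-13). Each remained called without embryo 1 (log2 fold 8.28 ± 0.58, log2 fold 5.16 ± 0.39 and log2 fold -4.39 ± 0.56). Epcam, on which cells were gated, stood at 495 CPM in embryo 1 and 335 CPM in embryo 2 and 139 to 198 CPM in WT (median 152); no test is given for it.

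Enzymes and inhibitors of the mature epithelium were, like the cornified genes, mostly lower than in WT. Of 32 xenobiotic and redox enzymes 29 were lower and 2 higher, with a median log2 fold of -3.55 (28 and 1 without embryo 1; 30 and 1 against Junction squamous; 24 and 3 against Junction columnar). Adh7, the alcohol and retinol dehydrogenase of the upper digestive tract, stood at 0.831 CPM in embryo 1 and 1.56 CPM in embryo 2 and 479 to 626 CPM in WT (median 513). For Adh7 the log2 fold was -9.31 ± 0.46 (adjusted p = 2.14e-21). Nqo1, a quinone reductase and classic Nrf2 target, stood at 1.57 CPM in embryo 1 and 1.74 CPM in embryo 2 and 93.3 to 120.1 CPM in WT (median 105). The Nqo1 log2 fold was -6.50 ± 0.32 (adjusted p = 2.56e-21). Gpx2, the epithelial glutathione peroxidase, stood at 13.1 CPM in embryo 1 and 18.1 CPM in embryo 2 and 257 to 305 CPM in WT (median 284). For Gpx2 the log2 fold was -4.70 ± 0.21 (adjusted p = 9.46e-23). The low level of Nqo1 held against both junction groups, with log2 fold -6.51 ± 0.33 and log2 fold -5.92 ± 0.32 for Nqo1 against Junction squamous and Junction columnar. Among serpins and other protease inhibitors 18 of 27 were lower and 7 higher (16 and 5 without embryo 1). Against Junction columnar, 4 of these inhibitors were lower and 9 higher, unlike the xenobiotic and redox enzymes. Serpinb2, an inhibitor abundant in suprabasal keratinocytes, stood at 6.19 CPM in embryo 1 and 10.2 CPM in embryo 2 and 2135 to 2927 CPM in WT (median 2445). The Serpinb2 log2 fold was -8.76 ± 0.49 (adjusted p = 1.32e-19). Serpinb5, maspin, stood at 28.6 CPM in embryo 1 and 48.3 CPM in embryo 2 and 617 to 718 CPM in WT (median 686). For Serpinb5 the log2 fold was -4.68 ± 0.43 (adjusted p = 1.39e-12).

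The Hedgehog pathway was higher in most members: 15 of 19 genes tested were higher and 2 lower, and 15 of 20 and 2 without embryo 1. Shh, the ligand of the foregut endoderm, stood at 196 CPM in embryo 1 and 169 CPM in embryo 2 and 0 to 0.122 CPM in WT (median 0); with 2 counts over all WT libraries the ratio of pooled CPM was 4863 (95% exact counting interval 1345 to 40166) (adjusted p = 4.62e-22). Ptch1, the receptor and a direct target, stood at 180.1 CPM in embryo 1 and 323 CPM in embryo 2 and 15.3 to 20.4 CPM in WT (median 19.7). The Ptch1 log2 fold was 3.20 ± 0.26 (adjusted p = 2.06e-14). Shh was thus a transcript of the embryo and close to absent in WT, while Ptch1 was present in both and higher in the embryo. Gli1, the target gene most used as a readout, stayed low at 3.6 CPM in embryo 1 and 6.14 CPM in embryo 2 and 0.428 to 1.22 CPM in WT (median 0.674). For Gli1 the log2 fold was 2.23 ± 0.38 (adjusted p = 2.45e-06). Gli3, the main repressor form of the family, stood at 82.4 CPM in embryo 1 and 119.8 CPM in embryo 2 and 10.6 to 27 CPM in WT (median 20.1). The Gli3 log2 fold was 1.89 ± 0.23 (adjusted p = 1.43e-09). Kif7, a kinesin of the ciliary step, stood at 19.2 CPM in embryo 1 and 22.6 CPM in embryo 2 and 0.995 to 2.67 CPM in WT (median 2.08). For Kif7 the log2 fold was 2.96 ± 0.26 (adjusted p = 4.28e-13). Against these, the coreceptors Boc (log2 fold -1.72 ± 0.23, adjusted p = 2.06e-08) and Gas1 (log2 fold -2.40 ± 0.37, adjusted p = 3.96e-07) were lower, and Smo, the transducer, was not called (log2 fold 0.20 ± 0.15, adjusted p = 0.243). Smo was called higher with library totals (log2 fold 0.73 ± 0.16, adjusted p = 7.14e-05), with upper-quartile scaling (log2 fold 0.35, adjusted p = 0.0344) and by DESeq2 (log2 fold 0.31, adjusted p = 0.0485). Ihh, the ligand of the hindgut and stomach, stood at 12.2 CPM in embryo 1 and 0.275 CPM in embryo 2 and 0 to 0.122 CPM in WT (median 0.0534), was therefore mostly a transcript of embryo 1, and was not called without it (adjusted p = 0.308). Shh was not detected in Junction squamous cells, at a floor of 0.151 CPM, and was 27.8 ± 12.8 CPM (SD, n = 4) in Junction columnar cells. Gli1 stood at 16.9 ± 2.98 CPM (SD, n = 3) in Junction squamous cells and was lower in the embryo than there (log2 fold -2.33 ± 0.34, adjusted p = 1.3e-07). Against Junction squamous 13 Hedgehog genes were higher and 4 lower (of all genes 31.5% and 26%), and against Junction columnar 16 and 1.

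**Figure D2:**
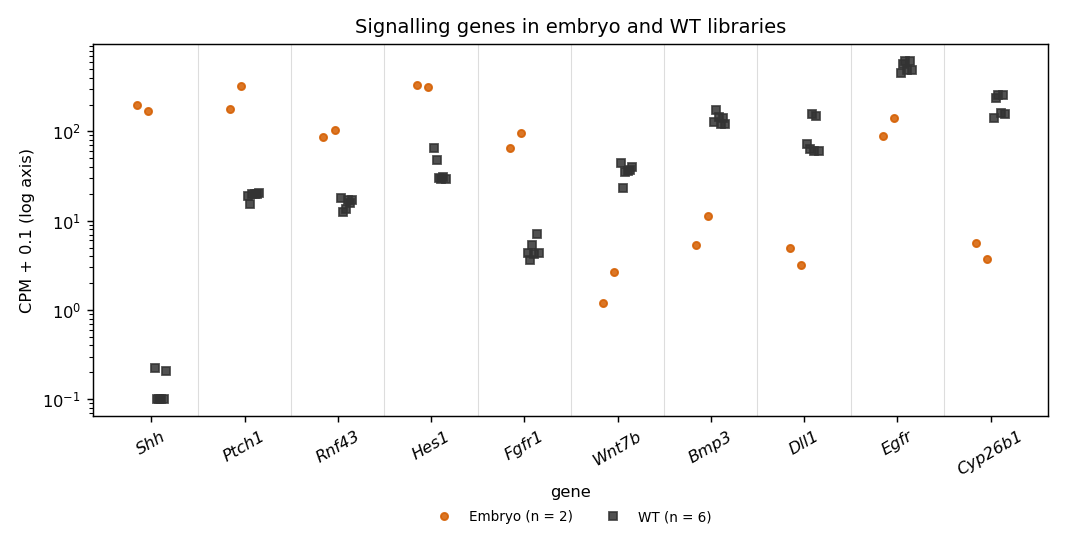
CPM of 10 signalling genes on a log axis with an offset of 0.1 CPM in the 2 embryo and 6 WT libraries, each point 1 library. Shh, Ptch1, Rnf43, Fgfr1 and Hes1 lie higher in both embryos than in every WT library, and Wnt7b, Bmp3, Egfr, Dll1 and Cyp26b1 lie lower.

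Among Wnt genes 20 of 34 were higher and 8 lower (19 of 35 and 8 without embryo 1). The ligands split: Wnt5b stood at 17.7 CPM in embryo 1 and 36.1 CPM in embryo 2 and 1.18 to 2.35 CPM in WT (median 1.32). The Wnt5b log2 fold was 3.63 ± 0.34 (adjusted p = 2.88e-12). Wnt7b stood at 1.11 CPM in embryo 1 and 2.57 CPM in embryo 2 and 23.1 to 43.7 CPM in WT (median 36.8). The Wnt7b log2 fold was -4.80 ± 0.34 (adjusted p = 3.44e-16). Wnt10a (log2 fold -4.18 ± 0.35, adjusted p = 4.33e-14) and Wnt4 (log2 fold -2.04 ± 0.26, adjusted p = 8.53e-09) were lower too. The targets and feedback regulators of β-catenin named next were higher. Rnf43, a ubiquitin ligase that removes Wnt receptors, stood at 87.1 CPM in embryo 1 and 104 CPM in embryo 2 and 12.4 to 17.8 CPM in WT (median 16.1). For Rnf43 the log2 fold was 2.10 ± 0.15 (adjusted p = 1.21e-15). Lgr5, an R-spondin receptor and stem cell marker of the gut, stood at 23.1 CPM in embryo 1 and 28.8 CPM in embryo 2 and 0.353 to 1.11 CPM in WT (median 0.625). The Lgr5 log2 fold was 4.71 ± 0.60 (adjusted p = 6.07e-09). Axin2 (log2 fold 3.77 ± 0.46, adjusted p = 2.11e-09) and the transcription factor Lef1 (log2 fold 5.19 ± 0.56, adjusted p = 1.04e-10) were higher as well. Against Junction squamous 16 Wnt genes were higher and 9 lower. Axin2 (log2 fold 0.67 ± 0.48, adjusted p = 0.236) and Lgr5 (log2 fold 0.74 ± 0.56, adjusted p = 0.267) were not called there. Rnf43 (log2 fold 1.41 ± 0.19) and Lef1 (log2 fold 4.53 ± 0.71) were called higher there too.

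BMP and TGF-β genes were divided, with 13 of 26 higher and 7 lower (12 of 27 and 6 without embryo 1). Bmp3, an atypical member of the family, stood at 5.26 CPM in embryo 1 and 11.3 CPM in embryo 2 and 119.7 to 175 CPM in WT (median 134). For Bmp3 the log2 fold was -4.59 ± 0.35 (adjusted p = 3.98e-15). The activin antagonist Fst stood at 15.7 CPM in embryo 1 and 27.1 CPM in embryo 2 and 142 to 405 CPM in WT (median 220.4). For Fst the log2 fold was -4.0 ± 0.51 (adjusted p = 5.74e-09). The receptor Tgfbr2 was lower (log2 fold -2.50 ± 0.27, adjusted p = 1.01e-10). Bmp7, a ligand, stood at 80.8 CPM in embryo 1 and 125 CPM in embryo 2 and 29.6 to 37.3 CPM in WT (median 34.2). The Bmp7 log2 fold was 1.07 ± 0.21 (adjusted p = 2.39e-05). Nog, the BMP antagonist that helps part oesophagus from trachea, stood at 1.48 CPM in embryo 1 and 3.12 CPM in embryo 2 and 0 to 0.124 CPM in WT (median 0). Bmpr1b, a type I receptor, stood at 25.5 CPM in embryo 1 and 26.8 CPM in embryo 2 and 0 to 0.249 CPM in WT (median 0). Both were near 0 in WT, and Nog was also low in the embryo. Against Junction squamous 8 BMP and TGF-β genes were higher and 10 lower. Bmp7 (log2 fold -0.01 ± 0.25, adjusted p = 0.971) and Bmp3 (log2 fold 0.65 ± 0.38, adjusted p = 0.135) were not called there, while Fst was lower there too (log2 fold -3.34 ± 0.51).

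Of 19 Notch genes 10 were higher and 7 lower (11 and 4 of 20 without embryo 1). The target Hes1 stood at 327 CPM in embryo 1 and 310.3 CPM in embryo 2 and 29.2 to 65 CPM in WT (median 30.3). The Hes1 log2 fold was 2.52 ± 0.23 (adjusted p = 6.29e-13). The target Hey1 stood at 14 CPM in embryo 1 and 25 CPM in embryo 2 and 0 to 1.7 CPM in WT (median 0.116). For Hey1 the log2 fold was 5.17 ± 0.53 (adjusted p = 2.36e-11). The ligand Dll1 stood at 4.8 CPM in embryo 1 and 3.12 CPM in embryo 2 and 60.1 to 155 CPM in WT (median 67.8). The Dll1 log2 fold was -5.09 ± 0.45 (adjusted p = 3.29e-13). Ligand and targets thus went in opposite directions, and the receptor Notch1 was slightly lower (log2 fold -0.86 ± 0.18, adjusted p = 5.97e-05), a call lost with library totals (log2 fold -0.33 ± 0.19, adjusted p = 0.123). Against Junction squamous 8 Notch genes were higher and 6 lower. Hes1 was not called there (log2 fold 0.05 ± 0.28, adjusted p = 0.904), while Hey1 (log2 fold 4.85 ± 0.70) was higher and Dll1 (log2 fold -2.46 ± 0.44) lower.

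FGF and EGF genes were divided, with 11 of 24 higher and 11 lower (13 and 10 of 26 without embryo 1). Fgfr1, an FGF receptor, stood at 64.6 CPM in embryo 1 and 94.6 CPM in embryo 2 and 3.48 to 6.99 CPM in WT (median 4.27). For Fgfr1 the log2 fold was 3.53 ± 0.25 (adjusted p = 5.59e-16). Fgfr2, the epithelial receptor, was not called (log2 fold 0.26 ± 0.13, adjusted p = 0.08) but was called higher without embryo 1 (log2 fold 0.43 ± 0.16, adjusted p = 0.0199) and with library totals (log2 fold 0.78 ± 0.14, adjusted p = 7.35e-06). Egfr stood at 88 CPM in embryo 1 and 141 CPM in embryo 2 and 456 to 616 CPM in WT (median 524). The Egfr log2 fold was -2.75 ± 0.32 (adjusted p = 4.38e-10). Its ligands Tgfa (log2 fold -2.24 ± 0.26, adjusted p = 6.01e-10), Areg (log2 fold -3.49 ± 0.45, adjusted p = 7.46e-09) and Epgn (log2 fold -4.75 ± 0.45, adjusted p = 2.44e-12) were lower too. The family member Erbb4 stood at 8.77 CPM in embryo 1 and 17.7 CPM in embryo 2 and 0 to 0.124 CPM in WT (median 0).

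Retinoic acid genes numbered 8 higher and 8 lower of 19 (7 and 7 of 20 without embryo 1). Cyp26b1, which degrades retinoic acid, stood at 5.54 CPM in embryo 1 and 3.67 CPM in embryo 2 and 139.8 to 254 CPM in WT (median 197). For Cyp26b1 the log2 fold was -5.96 ± 0.45 (adjusted p = 2.01e-15). Rdh12, a retinol dehydrogenase, was lower (log2 fold -7.18 ± 0.32, adjusted p = 1.44e-22). Rarb, a receptor that is itself induced by retinoic acid, stood at 59.2 CPM in embryo 1 and 104 CPM in embryo 2 and 4.26 to 6.97 CPM in WT (median 6.87). The Rarb log2 fold was 3.15 ± 0.21 (adjusted p = 2.51e-17). Both enzymes thus stood higher in WT, and this receptor in the embryo.

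Transcription factors of the foregut were read next: 21 of 36 tested were higher and 8 lower (19 and 7 of 38 without embryo 1). Sox2, which specifies oesophagus against trachea, stood at 52.1 CPM in embryo 1 and 93.5 CPM in embryo 2 and 23.8 to 41.5 CPM in WT (median 27.2) (log2 fold 0.75 ± 0.27, adjusted p = 0.0136; log2 fold 1.02 ± 0.33, adjusted p = 0.00793, without embryo 1); without embryo 2 it was not called (log2 fold 0.22). Trp63, the p63 gene of stratified epithelia, stood at 288 CPM in embryo 1 and 569.6 CPM in embryo 2 and 463 to 537 CPM in WT (median 518). It was called lower with both embryos (log2 fold -0.79 ± 0.24, adjusted p = 0.00374) and not without embryo 1 (log2 fold -0.47 ± 0.29, adjusted p = 0.177) or with library totals (log2 fold -0.26 ± 0.24, adjusted p = 0.342). In CPM, embryo 1 lay below the WT range for Trp63 and embryo 2 above it. Sox9 stood at 184 CPM in embryo 1 and 146 CPM in embryo 2 and 58.9 to 124 CPM in WT (median 89.1) and was not called (log2 fold 0.35 ± 0.31, adjusted p = 0.323; log2 fold 0.89 ± 0.29, adjusted p = 0.00634, with library totals). Nkx2-1, which marks the tracheal and lung side, was at 0.0923 and 0.0916 CPM in embryos 1 and 2 and was not tested. Foxa2, the pioneer factor of anterior endoderm, stood at 22.6 CPM in embryo 1 and 37.2 CPM in embryo 2. No WT library held a count of it, which puts the embryo at least 532-fold above the WT floor. Against Junction columnar cells Foxa2 was not called (log2 fold -0.26 ± 0.45, adjusted p = 0.642). Eya1, a transcriptional cofactor of pharyngeal endoderm, stood at 25.2 CPM in embryo 1 and 52.6 CPM in embryo 2 with 1 count in WT, a ratio of 2078 (95% exact counting interval 372 to 82153). Klf4, a driver of squamous differentiation, stood at 212 CPM in embryo 1 and 252 CPM in embryo 2 and 854 to 1141 CPM in WT (median 973). For Klf4 the log2 fold was -2.61 ± 0.22 (adjusted p = 1.31e-13). Klf5, of basal and progenitor cells, stood at 485 CPM in embryo 1 and 511 CPM in embryo 2 and 729 to 963 CPM in WT (median 789). The Klf5 log2 fold was -1.23 ± 0.15 (adjusted p = 9.85e-10). Pax9, an oesophageal factor, was not called (log2 fold -0.36 ± 0.26, adjusted p = 0.233).

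The SoxC factors, which mark immature and migrating cells in many tissues, were all higher, and of 8 SoxC and related factors tested 6 were higher and 1 lower (5 and 0 without embryo 1). Sox11 stood at 619.9 CPM in embryo 1 and 494 CPM in embryo 2 and had 1 count in all of WT, a ratio of 29686 (95% exact counting interval 5327 to 1172630.0). Sox4 stood at 317 CPM in embryo 1 and 298 CPM in embryo 2 and 30.3 to 57.8 CPM in WT (median 40.9). The Sox4 log2 fold was 2.38 ± 0.22 (adjusted p = 1.48e-12). Sox12 stood at 23 CPM in embryo 1 and 20.9 CPM in embryo 2 and 1.62 to 3.53 CPM in WT (median 2.18). For Sox12 the log2 fold was 2.68 ± 0.31 (adjusted p = 5.59e-10). Both were also higher without embryo 1 (log2 fold 2.24 ± 0.28 for Sox4 and log2 fold 2.52 ± 0.38 for Sox12). Hox genes, which set position along the body axis, went in both directions: 5 of 13 tested were higher and 3 lower (5 and 4 of 14 without embryo 1). These counts are near the shares of all genes tested (36.1% higher and 27.8% lower). The anterior Hoxb3 stood at 7.57 CPM in embryo 1 and 11.2 CPM in embryo 2 and 1.28 to 2.44 CPM in WT (median 1.45). For Hoxb3 the log2 fold was 2.03 ± 0.31 (adjusted p = 3.48e-07). Hoxa3, also anterior, stood at 19.2 CPM in embryo 1 and 16.6 CPM in embryo 2 and 3.74 to 6.82 CPM in WT (median 5.13). The Hoxa3 log2 fold was 1.26 ± 0.22 (adjusted p = 5.44e-06). Members of the C cluster were lower, with Hoxc5 at 4.43 CPM in embryo 1 and 8.15 CPM in embryo 2 and 17.2 to 21.2 CPM in WT (median 18.4) (log2 fold -2.12 ± 0.25, adjusted p = 1.26e-09) and Hoxc4 likewise (log2 fold -2.10 ± 0.26, adjusted p = 3.44e-09). Both junction groups held close to no Hoxa3, with means of 0.0522 CPM for Hoxa3 in Junction squamous and 0.139 CPM in Junction columnar cells.

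Oncofetal genes, expressed in embryos and again in tumours, were higher in 23 of 27 tested and lower in 1, with a median log2 fold of 4.96 (24 of 27 and 1 without embryo 1; 21 and 1 against Junction squamous; 25 and 0 against Junction columnar). Several are textbook targets of the let-7 microRNA family, which rises as tissues mature, and the mature sequences are shown because the 3′ untranslated regions (3′UTRs) can be read for matches. The libraries here count long RNA and do not measure mature let-7. The 4 family members below (RefSeq, GRCm38.p6) share the seed, bases 2 to 8, in capitals.
mmu-let-7a-5p: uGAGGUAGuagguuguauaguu
mmu-let-7c-5p: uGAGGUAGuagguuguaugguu
mmu-let-7d-5p: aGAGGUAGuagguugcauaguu
mmu-let-7f-5p: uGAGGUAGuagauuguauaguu
The match to that seed, CTACCTC on the transcript strand, was found in the longest 3′UTR of 11 of 27 oncofetal and growth genes and in that of 1898 of 21037 genes (9.0%) of the GENCODE M21 annotation. The 3′UTRs of the listed genes were longer, with a median of 1697 bases against 960, and the list was chosen with let-7 targets in mind, so the share is a description. The first match in 4 of them is shown with 10 bases on either side, in GRCm38 on the minus strand, with the seed match in capitals.
Hmga2, chr10:120364215-120364241: cattcaatttCTACCTCagcatcagtt
Igf2bp1, chr11:95961769-95961795: gcgaagtaaaCTACCTCaaggtgtgaa
Igf2bp3, chr6:49086778-49086804: ttttactcaaCTACCTCaggtattcag
Lin28b, chr10:45381013-45381039: ggcgggaagtCTACCTCatgcaagcac
Hmga2, an architectural chromatin protein with 4 matches in its 3′UTR, stood at 507 CPM in embryo 1 and 272 CPM in embryo 2 and 0 to 0.122 CPM in WT (median 0.0506), a ratio of 6913 (95% exact counting interval 2365 to 33527) over 3 WT counts. Igf2bp1, an mRNA-binding protein with 4 matches, stood at 312 CPM in embryo 1 and 167 CPM in embryo 2 and 0 to 0.249 CPM in WT (median 0.112). For Igf2bp1 the log2 fold was 10.35 ± 0.43 (adjusted p = 9.24e-24). Igf2bp3, with 1 match, stood at 279.8 CPM in embryo 1 and 179 CPM in embryo 2 and 4.73 to 5.6 CPM in WT (median 5.17). The Igf2bp3 log2 fold was 4.96 ± 0.23 (adjusted p = 4.71e-22). Lin28b, which blocks let-7 maturation, had a low level, at 10.2 CPM in embryo 1 and 1.65 CPM in embryo 2 and 0 to 0.373 CPM in WT (median 0.158). The Lin28b log2 fold was 4.65 ± 0.62 (adjusted p = 2.02e-08). Most of the Lin28b level lay in embryo 1 (log2 fold 2.71 ± 0.79, adjusted p = 0.00355 without it). Members without a match were higher as well. Mdk, the growth factor midkine, stood at 349.6 CPM in embryo 1 and 199 CPM in embryo 2 and 0 to 0.365 CPM in WT (median 0.225). For Mdk the log2 fold was 9.88 ± 0.38 (adjusted p = 5.31e-25). Tead2, a Hippo pathway factor, stood at 82.4 CPM in embryo 1 and 80.1 CPM in embryo 2 and 0.731 to 1.6 CPM in WT (median 1.03). For Tead2 the log2 fold was 5.71 ± 0.28 (adjusted p = 2.44e-21). Myc was the member called lower, at 128 CPM in embryo 1 and 96.7 CPM in embryo 2 and 206 to 295 CPM in WT (median 227). The Myc log2 fold was -1.58 ± 0.24 (adjusted p = 3.43e-07). The part that let-7 plays in these levels was not tested. Of 8 let-7 precursor and host transcripts tested, 5 were higher and 1 lower (5 and 1 of 9 without embryo 1, 2 and 1 without embryo 2).

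The imprinted growth network, genes expressed from 1 parental allele that act on fetal growth, was higher in 22 of 24 tested and lower in 0, with a median log2 fold of 7.91 (7.23 with genes that have no WT count at their bound; 21 and 0 without embryo 1). Igf2, the fetal insulin-like growth factor, stood at 2580.1 CPM in embryo 1 and 2162 CPM in embryo 2 and 0.249 to 0.963 CPM in WT (median 0.658). For Igf2 the log2 fold was 11.27 ± 0.30 (adjusted p = 6.54e-31). Grb10, an inhibitor of insulin and IGF receptors, stood at 1109 CPM in embryo 1 and 675 CPM in embryo 2 and 0.304 to 2.35 CPM in WT (median 0.982). The Grb10 log2 fold was 9.03 ± 0.34 (adjusted p = 2.06e-25). Rian, a long noncoding RNA of the Dlk1 domain, stood at 666 CPM in embryo 1 and 766 CPM in embryo 2 and 0.213 to 0.852 CPM in WT (median 0.45). For Rian the log2 fold was 10.01 ± 0.41 (adjusted p = 5.97e-24). Both embryo libraries lay far above the highest WT library for all 3. H19, the noncoding neighbour of Igf2, was present in WT too, at 4075 CPM in embryo 1 and 3409.9 CPM in embryo 2 and 151 to 591 CPM in WT (median 206). The H19 log2 fold was 3.09 ± 0.41 (adjusted p = 1.58e-08). Cdkn1c, a cell-cycle inhibitor, stood at 83.4 CPM in embryo 1 and 98.5 CPM in embryo 2 and 0.707 to 1.71 CPM in WT (median 0.985). For Cdkn1c the log2 fold was 5.77 ± 0.32 (adjusted p = 1.42e-19). Peg3 differed between the embryos, at 1152 CPM in embryo 1 and 395 CPM in embryo 2 and 2.71 to 9.95 CPM in WT (median 7.82) (log2 fold 6.32 ± 0.40; log2 fold 5.25 ± 0.44 without embryo 1). Against Junction squamous 22 of the network were higher and 1 lower, and against Junction columnar 20 and 0. Rian was 57.8 ± 17.8 CPM (SD, n = 4) and H19 0.235 ± 0.365 CPM in Junction columnar cells.

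**Figure D3:**
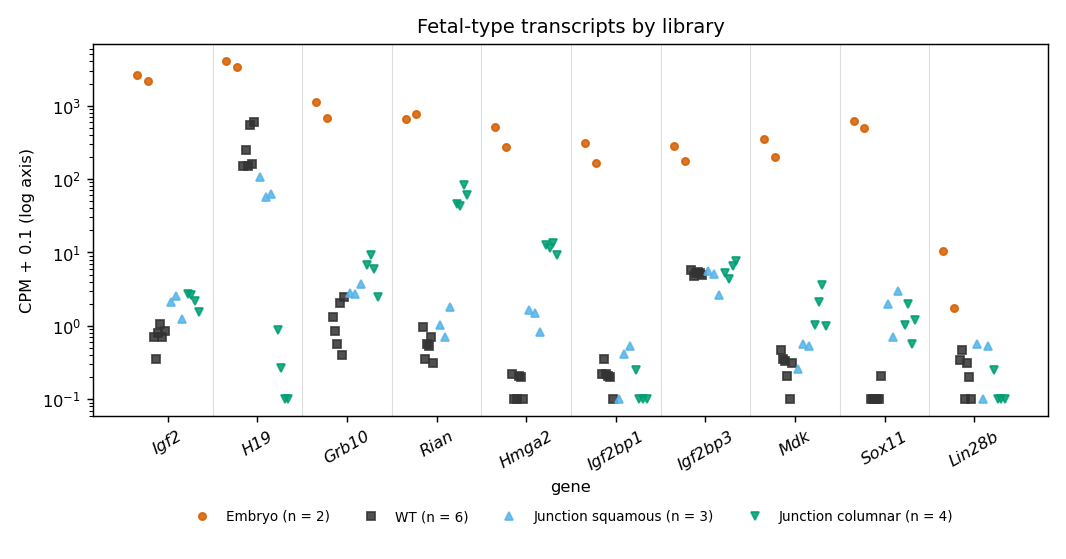
CPM on a log axis with an offset of 0.1 CPM for 10 oncofetal, imprinted and SoxC genes, each point 1 library of the embryo, WT, Junction squamous or Junction columnar group. In both embryos all 10 lie above every WT library; H19 and Igf2bp3 keep a clear WT level, and Lin28b is low in embryo 2.

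Proliferation genes gave a mixed picture that moved with the library left out. Of 40 cell-cycle genes 20 were higher and 4 lower with both embryos, 14 and 4 without embryo 1, and 21 and 0 without embryo 2. Cdc6, a replication licensing factor, stood at 32.3 CPM in embryo 1 and 17.1 CPM in embryo 2 and 0.81 to 2.19 CPM in WT (median 1.21) (log2 fold 3.71 ± 0.34, adjusted p = 9.53e-13; log2 fold 3.08 ± 0.40 without embryo 1). Ccne1, cyclin E1, stood at 29.9 CPM in embryo 1 and 11.8 CPM in embryo 2 and 0.825 to 3.77 CPM in WT (median 2.05) (log2 fold 2.83 ± 0.37, adjusted p = 7.67e-09; log2 fold 1.92 ± 0.45 without embryo 1). The replication helicase gene Mcm2 (log2 fold 1.56 ± 0.33, adjusted p = 5.83e-05) was higher as well (log2 fold 1.12 ± 0.42, adjusted p = 0.0222, without embryo 1). Mki67, the proliferation marker Ki-67, overlapped WT in raw level, at 544 CPM in embryo 1 and 373 CPM in embryo 2 and 366 to 709 CPM in WT (median 546), and was called lower (log2 fold -0.76 ± 0.26, adjusted p = 0.00957; log2 fold -0.24 ± 0.27, adjusted p = 0.425, with library totals), a call also lost without embryo 2 (log2 fold -0.57). The D-type cyclins differed in direction. Ccnd1 stood at 49.2 CPM in embryo 1 and 37.7 CPM in embryo 2 and 101 to 179 CPM in WT (median 159) (log2 fold -2.34 ± 0.21, adjusted p = 3.51e-13). Ccnd2 stood at 1222 CPM in embryo 1 and 1242 CPM in embryo 2 and 115 to 299 CPM in WT (median 188). The Ccnd2 log2 fold was 2.07 ± 0.27 (adjusted p = 1.48e-08). Ccnd3 stood at 91.2 CPM in embryo 1 and 93.8 CPM in embryo 2 and 14.4 to 21.9 CPM in WT (median 17.5). The Ccnd3 log2 fold was 1.84 ± 0.14 (adjusted p = 1.81e-15). The inhibitor Cdkn1a, p21, stood at 51 CPM in embryo 1 and 49.4 CPM in embryo 2 and 189 to 298 CPM in WT (median 211). For Cdkn1a the log2 fold was -2.67 ± 0.32 (adjusted p = 9.91e-10). Replication-dependent histones were higher in 11 and lower in 2 of 29, but in 1 and 2 without embryo 1 and in 27 and 0 with library totals, so no direction is given for them.

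Chromatin genes included 19 higher and 4 lower of 31 (14 and 4 without embryo 1). Dnmt3a, a de novo DNA methyltransferase, stood at 241 CPM in embryo 1 and 184 CPM in embryo 2 and 20.8 to 31.9 CPM in WT (median 24.3). The Dnmt3a log2 fold was 2.52 ± 0.14 (adjusted p = 1.08e-19). Tet1, which oxidises methylcytosine, stood at 48.2 CPM in embryo 1 and 40.9 CPM in embryo 2 and 0.213 to 1.28 CPM in WT (median 0.799). For Tet1 the log2 fold was 5.38 ± 0.36 (adjusted p = 4.22e-17). Smarca1, an ISWI remodeller, stood at 45.5 CPM in embryo 1 and 58.4 CPM in embryo 2 and 0 to 0.124 CPM in WT (median 0), a ratio of 1386 (95% exact counting interval 383 to 11457). Both embryos lay above every WT library in all 3. Among splicing and RNA-binding regulators 11 of 27 were higher and 8 lower (9 and 7 without embryo 1), with Esrp1, the epithelial splicing factor, at 259.9 CPM in embryo 1 and 304 CPM in embryo 2 and 370.4 to 461 CPM in WT (median 404) (log2 fold -1.05 ± 0.11, adjusted p = 1.63e-11) and Rbfox2 at 204 CPM in embryo 1 and 273 CPM in embryo 2 and 56.2 to 84.8 CPM in WT (median 74.3). The Rbfox2 log2 fold was 1.20 ± 0.11 (adjusted p = 1.64e-12). The counts of splicing and RNA-binding regulators are near the shares of all genes tested (36.1% higher and 27.8% lower).

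Ribosomal protein and respiratory chain genes were lower by small amounts, and other housekeeping lists were less uniform. All 36 cytosolic ribosomal protein genes tested were lower with both embryos and without embryo 1, with a median log2 fold of -1.0, and 31 were lower with library totals (median -0.47). Rplp0, a stalk protein of the ribosome, stood at 759 CPM in embryo 1 and 668 CPM in embryo 2 and 1293 to 1386 CPM in WT (median 1361). For Rplp0 the log2 fold was -1.44 ± 0.14 (adjusted p = 2.3e-12). Of 35 respiratory chain genes 33 were lower and 0 higher (34 and 0 without embryo 1, 20 and 0 with library totals), with Atp5b, a subunit of ATP synthase, at 451 CPM in embryo 1 and 324 CPM in embryo 2 and 639 to 702 CPM in WT (median 649). The Atp5b log2 fold was -1.28 ± 0.13 (adjusted p = 1.6e-11). Ribosome biogenesis genes had 15 of 25 lower and 0 higher with TMM. The counts were 20 and 0 without embryo 1, 5 and 0 without embryo 2, and 3 and 5 with library totals, so no direction is given for them. Cholesterol synthesis genes had 18 of 24 lower and 1 higher (21 and 0 without embryo 1, 12 and 1 without embryo 2, 11 and 3 with library totals). Glycolysis and glucose uptake genes had 12 lower and 5 higher of 27 (15 and 3 without embryo 1, 7 and 9 with library totals), with the glucose transporter Slc2a1 at 133 CPM in embryo 1 and 139 CPM in embryo 2 and 409 to 736 CPM in WT (median 649). The Slc2a1 log2 fold was -2.67 ± 0.30 (adjusted p = 3.73e-10). Exonic length moved with the fold. Over protein-coding genes of at least 5 CPM, split by exonic length in 5 groups of equal size, the median log2 fold rose in order from -0.53 in the shortest group through -0.25, -0.09 and 0.01 to 0.18 in the longest. The part of length in the ribosomal and respiratory results was not tested.

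**Figure D4:**
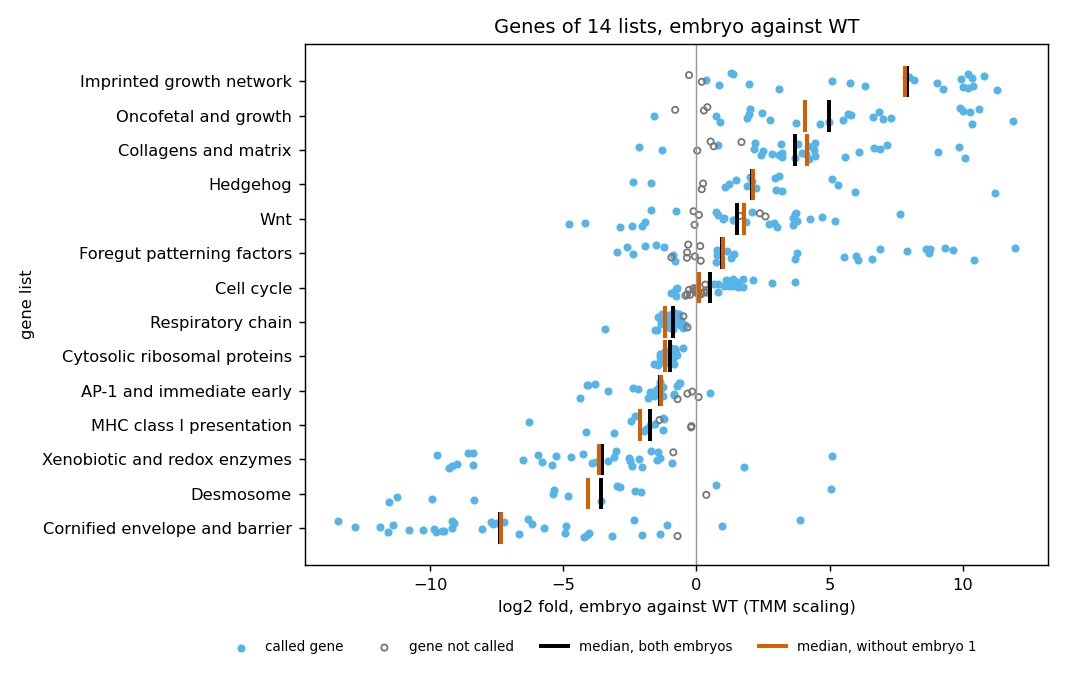
Log2 fold of embryo against WT (TMM scaling) for the genes of 14 lists, each point 1 gene tested; filled points were called and open points not, and short bars mark each list's median with both embryos (black) and without embryo 1 (orange). Genes with no count in a group are drawn at their fitted fold, which is not a bound. Cornified, desmosome and xenobiotic genes lie mostly below 0, imprinted and oncofetal genes mostly above, and the ribosomal proteins form a tight band near -1.

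Immune-facing genes of the epithelium were mostly lower than in WT. Of 15 genes of MHC class I presentation 12 were lower and 0 higher (11 and 0 without embryo 1, 15 and 0 against Junction columnar). H2-D1, a classical class I heavy chain, stood at 24 CPM in embryo 1 and 13.47 CPM in embryo 2 and 133 to 264 CPM in WT (median 246). For H2-D1 the log2 fold was -4.15 ± 0.26 (adjusted p = 1.35e-17). Tap2, a subunit of the peptide transporter, stood at 0.0923 CPM in embryo 1 and 0.275 CPM in embryo 2 and 8.51 to 15.8 CPM in WT (median 9.79). The Tap2 log2 fold was -6.29 ± 0.43 (adjusted p = 1.33e-16). H2-K1 stood at 36.6 CPM in embryo 1 and 12.6 CPM in embryo 2 and 106 to 218 CPM in WT (median 127). For H2-K1 the log2 fold was -3.11 ± 0.30 (adjusted p = 3.63e-12). Against Junction squamous 9 class I presentation genes were lower and 0 higher, and with library totals 8 and 0 against WT. Class I genes are polymorphic between mouse strains, and strain and age cannot be told apart here. Of 24 interferon-stimulated genes 13 were lower and 2 higher (11 and 2 without embryo 1), with Ifi27 at 0.462 CPM in embryo 1 and 0.0916 CPM in embryo 2 and 33.3 to 49.3 CPM in WT (median 39.8). For Ifi27 the log2 fold was -7.62 ± 0.37 (adjusted p = 1.85e-21). Against Junction squamous 8 interferon-stimulated genes were lower and 3 higher, where 26% of all genes were lower. Of 29 antimicrobial and chemokine genes 16 were lower and 5 higher (16 and 5 without embryo 1). Il1rn, the interleukin-1 receptor antagonist of squamous epithelia, stood at 2.49 CPM in embryo 1 and 3.12 CPM in embryo 2 and 314 to 527 CPM in WT (median 508). The Il1rn log2 fold was -7.92 ± 0.71 (adjusted p = 4.41e-13).

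Matrix and guidance genes were mostly higher than in WT, beside markers of mesenchyme. Of 33 collagen and matrix genes 27 were higher and 2 lower, with a median log2 fold of 3.69 (3.22 with genes that have no WT count at their bound; 26 and 2 without embryo 1). Vcan, the proteoglycan versican, stood at 810.2 CPM in embryo 1 and 1341 CPM in embryo 2 and 0.353 to 2.07 CPM in WT (median 0.588). For Vcan the log2 fold was 9.85 ± 0.41 (adjusted p = 1.43e-23). Col2a1, a collagen of cartilage that embryonic epithelia also make, stood at 121 CPM in embryo 1 and 222 CPM in embryo 2 and 0 to 0.124 CPM in WT (median 0.107). The Col2a1 log2 fold was 10.09 ± 0.44 (adjusted p = 7.11e-21). Fn1, fibronectin, stood at 648 CPM in embryo 1 and 197 CPM in embryo 2 and 1.41 to 9.01 CPM in WT (median 1.87). For Fn1 the log2 fold was 6.65 ± 0.49 (adjusted p = 1.21e-15). Embryo 2 held more Vcan and Col2a1, and embryo 1 more Fn1. Of the fibroblast and mesenchyme markers 12 of 15 were higher as well and 0 lower (12 and 0 without embryo 1), with a summed level of 295 and 517 CPM in embryos 1 and 2 and 21.7 to 119 CPM in WT, and the part of such cells in the matrix result was not tested. Col1a1, the main fibroblast collagen, stood at 42.7 CPM in embryo 1 and 106 CPM in embryo 2 and 1.06 to 9.62 CPM in WT (median 1.46). The Col1a1 log2 fold was 4.23 ± 0.53 (adjusted p = 3.43e-09). Of the hemidesmosome and basement membrane genes 15 of 33 were higher and 13 lower (15 and 11 without embryo 1). Col17a1, the hemidesmosomal collagen of basal cells, stood at 179.9 CPM in embryo 1 and 311 CPM in embryo 2 and 1003 to 2002 CPM in WT (median 1506). The Col17a1 log2 fold was -3.15 ± 0.31 (adjusted p = 6.87e-12). Its integrin partner Itga6 was lower (log2 fold -2.20 ± 0.18, adjusted p = 1.66e-14). Itgb8, an integrin that activates TGF-β, stood at 81.9 CPM in embryo 1 and 117 CPM in embryo 2 and 0 to 0.365 CPM in WT (median 0.163). For Itgb8 the log2 fold was 8.55 ± 0.44 (adjusted p = 7.45e-21). Axon guidance genes had 24 of 39 higher and 11 lower (22 and 11 of 41 without embryo 1). The netrin Ntn1 stood at 133 CPM in embryo 1 and 242 CPM in embryo 2 and 0.428 to 0.852 CPM in WT (median 0.52). For Ntn1 the log2 fold was 7.81 ± 0.37 (adjusted p = 8.32e-22). The ephrin receptor Epha7 stood at 82.5 CPM in embryo 1 and 144 CPM in embryo 2 and 0 to 0.321 CPM in WT (median 0.184). The Epha7 log2 fold was 8.60 ± 0.30 (adjusted p = 2.18e-26). Against Junction squamous, 18 axon guidance genes were higher and 14 lower, and 24 collagen and matrix genes were higher and 4 lower. Folds there were smaller for Epha7 (log2 fold 1.92 ± 0.24), Itgb8 (log2 fold 2.28 ± 0.36) and Vcan (log2 fold 3.22 ± 0.39). Those of Ntn1 (log2 fold 8.67 ± 0.55) and Col2a1 (log2 fold 8.14 ± 0.52) remained large.

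Markers of other cell types were read for what the libraries held. Of 9 squamous basal markers 8 were lower and 0 higher (6 and 0 without embryo 1), and all 8 suprabasal markers tested were lower, also without embryo 1. Endothelial markers had 1 higher and 0 lower of 9 (2 and 0 without embryo 1), with Pecam1 at 6.65 CPM in embryo 1 and 11.8 CPM in embryo 2 and 6.7 to 12.2 CPM in WT (median 8.08). For Pecam1 the log2 fold was -0.48 ± 0.32 (adjusted p = 0.19). Leukocyte markers had 2 higher and 1 lower of 7 (3 and 1 without embryo 1), and Ptprc was under 1 CPM in every library of both groups. Smooth muscle markers had 6 higher and 0 lower of 8 (6 and 0 without embryo 1), at a summed level of 74 and 83.3 CPM in embryos 1 and 2 against 12.1 to 20.2 CPM in WT. Mesothelial markers had 6 higher and 0 lower of 6 (5 and 0 without embryo 1), at a summed level of 325 and 333 CPM in embryos 1 and 2 against 2.83 to 6.2 CPM in WT. Most of that sum was the simple keratin Krt19, and the factor Wt1 stood at 0.923 and 1.28 CPM in embryos 1 and 2. Neuronal markers had 4 higher and 1 lower of 7 (5 and 1 without embryo 1), at a summed level of 23.3 and 26.7 CPM in embryos 1 and 2 against 1.88 to 6.09 CPM in WT. Glial and neural crest markers had 4 higher and 1 lower of 6 (3 and 1 without embryo 1, 2 and 1 without embryo 2). Sox10 stood at 0.831 and 1.37 CPM in embryos 1 and 2. Skeletal muscle markers had 3 higher and 0 lower of 4 (3 and 0 without embryo 1), at a summed level of 32.5 and 61.3 CPM in embryos 1 and 2 against 10.9 to 17.7 CPM in WT, most of it Tnnt2 and Ttn, and Myod1 and Myf5 had no count in either embryo. Lung and trachea markers had 4 higher and 1 lower of 6 (4 and 1 without embryo 1), at a summed level of 197 and 131 CPM in embryos 1 and 2 against 27.7 to 60.8 CPM in WT, most of it the widely expressed Id2 and Etv5. The surfactant genes Sftpc and Sftpa1 had no count in either embryo. Stomach markers had 7 higher and 0 lower of 12 (5 and 0 without embryo 1), at a summed level of 32.3 and 38.5 CPM in embryos 1 and 2 against 2.36 to 5.97 CPM in WT, most of it the mucin Muc6. Notochord and floor plate markers had 5 higher and 0 lower of 5 (5 and 0 without embryo 1). Their sum was 343 and 433 CPM in embryos 1 and 2 and 0.101 to 0.249 CPM in WT. Thyroid markers had 3 higher and 0 lower of 4, enteroendocrine markers 5 and 0 of 9, and Langerhans markers 2 and 1 of 5. Ciliated markers had 0 higher and 1 lower of 3, and thymus and pharyngeal pouch markers 1 and 1 of 3. Levels of single members do not show which cells were present. The part of such cells in the results was not tested.

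The 2 embryo libraries differed from each other in a set of transcripts that include genes of intestine, liver and pancreas. Of 8103 genes whose embryo mean reached 20 CPM, 77 had a log2 ratio of at least 2 toward embryo 1 and 0 toward embryo 2, computed on CPM with an offset of 1 and without a test. Of those 77, 60 averaged 10 CPM or more in the gut or stomach libraries of the series (YFP-gated cells, n = 2 each), a smaller share than the 88.4% of all genes whose embryo mean reached 20 CPM. In every WT library 45 were under 1 CPM, as were 2.86% of all such genes. Apob, the apolipoprotein of liver and intestine, stood at 475 CPM in embryo 1 and 1.74 CPM in embryo 2. Cdx2, the master factor of intestine, stood at 41.9 CPM in embryo 1 and 0.183 CPM in embryo 2, and Cdh17, the liver-intestine cadherin, at 110.3 CPM in embryo 1 and 2.02 CPM in embryo 2. Hnf4a (79.9 and 0.916 CPM in embryos 1 and 2), Gata4 (84.9 and 0.825 CPM) and Afp (65.9 and 1.65 CPM), factors and products of posterior foregut, liver and stomach, had the same pattern. Summed over the marker lists, intestine was at 294 and 19 CPM, liver at 605 and 7.51 CPM, and pancreas and duodenum at 614 and 16.8 CPM. Against WT, 9 of 10 intestinal markers were called higher with both embryos, 4 without embryo 1 and 8 without embryo 2. Toward embryo 2 the ratios were smaller, with Col1a2, a fibroblast collagen, at 19.9 CPM in embryo 1 and 53.9 CPM in embryo 2. Whether embryo 1 held cells from outside the oesophagus was not tested. Over all genes, 7141 were called higher without embryo 1 and 6412 without embryo 2.

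**Figure D5:**
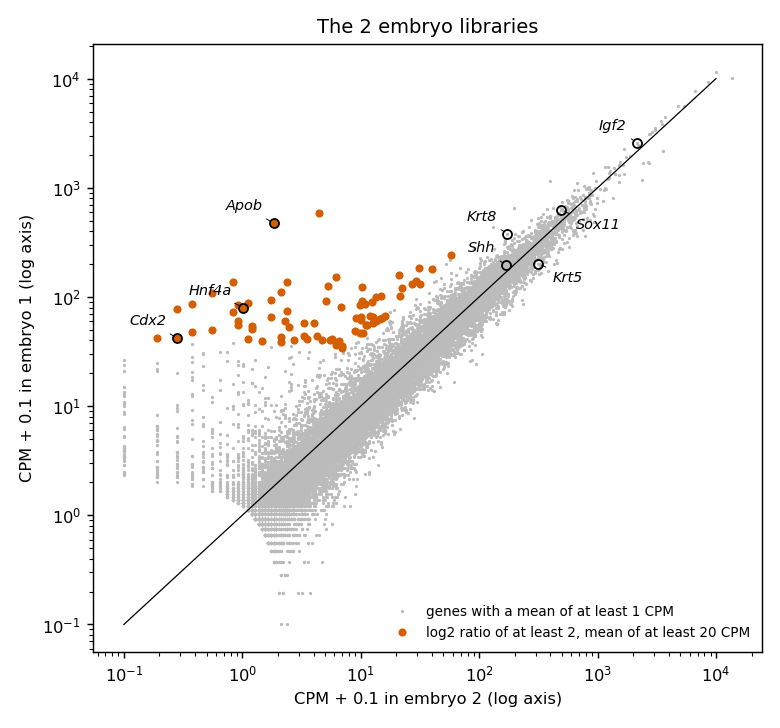
CPM in embryo 1 against CPM in embryo 2 on log axes with an offset of 0.1 CPM, 1 point a gene with a mean of at least 1 CPM; orange points are the genes with a log2 ratio of at least 2 toward embryo 1 and a mean of at least 20 CPM, and named points are genes of the text. Igf2, Shh and Sox11 lie near the diagonal, while Apob, Cdx2 and Hnf4a lie far toward embryo 1.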

How the data were processed

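RNA was measured in bulk from sorted cells of 51 mouse libraries. Per the labels' protocols, tissue was digested and cells were sorted into lysis buffer, RNA was extracted with a total RNA kit, and NuGEN Ovation Solo libraries were sequenced on a NovaSeq 6000. The deposited values are whole-number counts per gene; STAR 2.5.3a, HTSeq and edgeR and the builds GRCm38 and mm10 appear in the submitters' processing notes, while neither the strand setting nor the release of the annotation is given in the sources used here. Reads of overlapping, antisense and near-identical genes can therefore not be told apart. Of 52636 genes, 10741 had no count, and 52489 IDs were found in GENCODE M21, from which lengths and positions were taken.

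Groups came from the labels. The counts were analysed with edgeR 4.0.16 (R 4.3.3, limma 3.58.1), all 51 libraries in 1 fit with 37 residual degrees of freedom, TMM scaling, filterByExpr (minimum count 10, minimum total count 15) and the two-sided quasi-likelihood test, Benjamini-Hochberg adjusted over all genes tested. SE is the absolute log2 fold divided by the square root of F. CPM uses plain totals. A floor of 3 counts, summed over the libraries of a group, was used, and ratios over 1 to 3 counts carry 95% exact intervals that cover counting error only. The scripts were tested on simulated data. Alternatives were RLE, upper-quartile and library-total scaling, no filter, DESeq2 1.42.0, fits of the groups compared alone, a replicate block, summed WT pairs, WT replicates 3 and 4 alone (their raw names begin as those of the embryos do), a fold threshold and leaving out each library; library-total scaling was chosen after seeing the data.

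The gene lists and the rule for named genes were chosen with earlier results of these data known. The rule took the 20 largest folds in each direction, the 3 called members of each list with the smallest p in each direction and its 2 most abundant members, a set of anchor genes, and the 10 largest differences between the embryos; a few of these genes are not reported here. Of genes named in the text, Areg, Axin2, Bmp7, Ccne1, Cdx2, Col1a1, Dsg2, Fos, Gli3, Hnf4a, Ihh, Krt17, Krt20, Lef1, Lgr5, Lor, Mcm2, Nog, Nqo1, Peg3, Slc2a1, Sox12, Sprr1a, Tead2 and Tgm1 were chosen after their values were seen.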

Additional observations from a re-analysis of the deposited data

Results flagged for a closer look

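Among 106 named genes with a WT mean of at least 1 CPM, 23 had a WT library set apart from the others. Its gap to the nearest library exceeded 0.625 of the range of log2(CPM + 1), Dixon's 95% critical value for 6 independent libraries. All lay in replicate 1 (13 genes) or replicate 2 (10 genes), the WT libraries that have no close partner. A library with a close partner can hardly be flagged, and if each close pair is 1 sample this limit does not hold. The number and place of the flags are therefore a description. Replicate 1, which also differed by its Xist, was the lowest for Ccnd1 (101), Cldn1 (104), Dsg2 (50.4), Itga6 (612), Rarb (4.26), Tgfbr2 (88) and Trp63 (463) and the highest for Cdkn1a (298), Col1a1 (9.62), Col1a2 (7.18), Fn1 (9.01), Hoxb3 (2.44) and Sprr1b (290), all in CPM. Replicate 2 was the lowest for H2-D1 (133), Il1rn (314), Krt23 (79), Krt80 (15.9), Pax9 (114), Ptch1 (15.3) and Wnt7b (23.1) and the highest for Atp5b (702), Myc (295) and Pkp4 (253) CPM. With either replicate left out, the calls of all named genes and the directions of the called ones stayed as they were. None of the 4 genes with printed Junction columnar levels of at least 1 CPM on average had such a value among those 4 libraries.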

How the results depend on the processing

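Across the alternatives run, counts of calls over all genes and over all lists together stayed within 1.5 times of the reported ones except as follows. With library totals, 3631 genes in place of 6229 were lower than in WT, and against Junction squamous 10748 in place of 7053 were higher and 3511 in place of 5825 lower. A log2 fold of at least 1 as well left 3877 genes lower than WT. Leaving out each library in turn gave 6412 to 8040 genes higher and 5436 to 6218 lower than WT, 5419 to 6477 and 5020 to 5521 against Junction squamous, 5997 to 6963 and 5471 to 6436 against Junction columnar, and 362 to 410 and 355 to 406 list members. Counts of single lists moved more: 11 Hox genes were higher with no filter in place of 5, and 4 intestinal markers in place of 9 in a fit of the groups compared alone. DESeq2 called 8416 genes higher and 5704 lower than WT. In a fit of the embryo and WT libraries alone, 6586 genes were higher and 5418 lower.

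Replicate numbers are shared in the labels, and deviations of same-numbered embryo and WT libraries correlated at 0.0305 and -0.117 over genes. The deviations of the embryo libraries from their mean mirror each other, so these values cannot decide whether same-numbered libraries were paired. With a replicate block 7810 genes were higher and 6060 lower than WT. Among named genes it moved the calls of Sox2, Fos and Fgfr2 only.

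No named gene changed direction where the reported fit or the alternative called it. Uncalled folds did change sign, among them Fos (log2 fold 0.24 with WT replicates 3 and 4 alone) and Fgfr2 (log2 fold -0.13 without embryo 2). With library totals so did Pax9 (log2 fold 0.17) and Krt17 (log2 fold 0.11). Afp, Cdx2 and Nog were not called by DESeq2, Apob and Cdx2 were not called without embryo 1, and the cause was not tested. Smo and Fgfr2 were called higher by DESeq2 and with upper-quartile scaling, and Fgfr2 also with RLE. Pax9 was called lower without embryo 2, Fos was called lower without WT replicate 4 and with WT pairs summed, and Sox2 was not called with WT pairs summed. At these depths a level under the floor of a group cannot be told from 0.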
